A study of Mus musculus with 6 samples.

Results

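The matricellular genes described here were *Postn*, *Tgfbi*, *Sparc*, *Sparcl1*, *Tnc*, *Tnr*, *Tnxb*, *Spp1*, *Spon1* and *Spon2*. They were taken by symbol from the deposited count tables, in which all 10 were found among 53819 listed genes, and all 10 were among the 17496 genes that passed the filter on low counts. RNA had been sequenced from flexor digitorum longus (FDL) tendons, the long flexors of the toes, that were cut and sutured in mice aged 10 to 12 weeks and harvested at D28 post-surgery. Each library came from 1 tendon, and there were 3 libraries per genotype. DTRScxLin mice (Scx-Cre+; DTR F/+) carried a diphtheria toxin receptor allele that Cre recombination switches on in every cell that has ever used the *Scx* driver, a broad lineage and not only the cells that express *Scx* at harvest. WT mice (Scx-Cre-; DTR F/+) carried the same allele without Cre, and both genotypes received 5 daily local injections of 100 ng diphtheria toxin from D14 to D18. The sample titles instead count D28 from the depletion, while the labels' treatment field puts the injections 2 weeks before harvest, so the interval between depletion and harvest is not settled by the labels. The comparison asks how the healing tendon differed after the depletion. The strain background is not given in the sources used here.

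Matricellular proteins are secreted into the extracellular matrix but carry little load themselves. They tune how cells attach to collagen and fibronectin, mostly through integrins, and many are abundant in embryonic and injured tissue and scarce in resting adult tissue. Periostin (*Postn*) and its relative TGFBI share FAS1 domains and are classical targets of TGF-beta, while SPARC binds collagen and assists its secretion. Tenascins are large modular glycoproteins, of which tenascin-C marks injury and the muscle-tendon junction, tenascin-X spaces collagen fibrils and tenascin-R belongs mainly to the nervous system.

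The libraries held 42744138 to 48854310 counts on genes. *Scx* itself, whose lineage had been depleted, averaged 2656 ± 433 normalized read counts in WT tendons against 3472 ± 62.4 in DTRScxLin tendons (SD, n = 3 each, edgeR adjusted p = 0.371), and *Tnmd*, a defining tendon gene, had 50514 to 92219 in the 6 libraries. A list of 10 tendon markers, *Scx* and *Tnmd* among them, all had counts in every library. Their sum was 13258 to 16351 CPM (counts scaled to a common library size) in WT and 17163 to 18605 CPM in DTRScxLin tendons, without overlap. *Thbs4* was the most abundant, at 7074 CPM on average, so it made up a large part of the sum. The study had already reported it as upregulated in DTRScxLin tendons. Of the 10 markers, 8 were fitted higher, against 51.5% of all genes tested. The part of the tendon markers in the differences of the matricellular genes was not tested. Transcripts of other tissues also differed between libraries. A list of 20 skeletal muscle genes, all with counts in every library, summed to between 17554 and 24471 CPM in WT, and to 3221, 22526 and 5531 CPM in DTRScxLin replicates 1 to 3. A list of 12 keratinocyte genes summed to 3442 and 2070 CPM in WT replicates 1 and 2 and to at most 310.5 CPM in the other libraries. *Xist* was high in 1 WT and 2 DTRScxLin libraries, so both sexes were present in each group. In whole tendons, fewer cells of a type and less RNA per cell cannot be told apart.

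The 250 bases before the start of *Postn* and *Tnr* are shown because they are, of the genes whose DTRScxLin libraries all lay above the WT libraries, the ones with an entry in the RefSeq promoter table (GRCm38.p6), and those of *Sparc* because they alone held the E-box CAGATG or its reverse complement CATCTG, a form preferred by SCX, among the 10 starts of the 7 genes with an entry. The *Postn* sequence, from the start nearer to the principal GENCODE start of the 2 in the table, is chr3:54360857-54361106 on the plus strand, that of *Tnr* chr1:159523519-159523768 on the plus strand and that of *Sparc* chr11:55420081-55420330 on the minus strand. Capitals mark the motifs searched on both strands, namely E-boxes (CANNTG, of which CAGATG and CATCTG are forms), the SMAD-type word CAGAC or GTCTG, and the TATA-type word TATAAA or TTTATA.
Postn: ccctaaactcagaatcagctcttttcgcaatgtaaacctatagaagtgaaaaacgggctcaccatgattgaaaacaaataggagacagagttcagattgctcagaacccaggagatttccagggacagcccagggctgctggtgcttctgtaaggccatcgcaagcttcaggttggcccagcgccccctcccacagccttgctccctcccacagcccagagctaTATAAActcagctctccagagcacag
Tnr: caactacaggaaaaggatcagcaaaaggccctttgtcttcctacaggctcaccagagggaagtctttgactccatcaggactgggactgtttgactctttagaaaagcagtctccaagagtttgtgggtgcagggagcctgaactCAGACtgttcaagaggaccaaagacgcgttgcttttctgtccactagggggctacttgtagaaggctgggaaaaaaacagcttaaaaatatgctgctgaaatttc
Sparc: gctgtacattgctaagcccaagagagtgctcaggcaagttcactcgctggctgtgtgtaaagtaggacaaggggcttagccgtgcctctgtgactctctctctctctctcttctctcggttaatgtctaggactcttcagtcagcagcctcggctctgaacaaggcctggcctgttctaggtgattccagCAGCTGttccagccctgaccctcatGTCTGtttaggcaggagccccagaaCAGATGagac
The *Postn* sequence held 1 TATA-type word and no E-box, the *Tnr* sequence 1 SMAD-type word and no E-box, and the *Sparc* sequence 2 E-boxes and 1 SMAD-type word. Among all 32851 promoter starts in the table, 66.2% held an E-box, 14.4% the CAGATG form, 42.2% the SMAD-type word and 12.4% the TATA-type word. These matches describe the letters in the windows and are not evidence of binding.

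*Sparc* was the most abundant of the 10 transcripts per length and *Tnr* by far the least. Divided by the length of the principal GENCODE transcript, *Sparc* stood at 231609 ± 31375 normalized read counts per kilobase in WT (SD, n = 3), followed by *Spp1* at 62328, *Postn* at 43074, *Tgfbi* at 11512, *Sparcl1* at 9280, *Tnc* at 4669, *Spon2* at 4091, *Spon1* at 3682, *Tnxb* at 694.5 and *Tnr* at 4.49. In this order *Spp1* and *Postn*, *Tgfbi* and *Sparcl1*, *Tnc* and *Spon2*, and *Spon2* and *Spon1* had overlapping ranges over the 3 WT libraries. In DTRScxLin tendons the first 5 places were the same, with *Spp1* above *Postn* in 2 of 3 libraries and overlapping ranges, and *Spon1* (6147 normalized read counts per kilobase) stood above *Tnc* (5418) and *Spon2* (4181), with overlapping ranges among these 3 and between *Sparcl1* and *Spon1*. With the union of all annotated exons as length, *Sparcl1* stood above *Tgfbi* in WT. In DTRScxLin tendons *Tnc* (4949 per kilobase) then stood above *Spon1* (3648), in 3 of 3 libraries. The 10 genes together took 1.75% to 2.17% of the counts in WT and 2.77%, 2.09% and 2.43% in DTRScxLin replicates 1 to 3.

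*Postn*, *Tnr* and *Spon1* were higher and *Sparcl1* was lower in each DTRScxLin library than in each WT library, and the other 6 genes overlapped. In edgeR's quasi-likelihood test with Benjamini-Hochberg adjustment over all genes, 0 of the 10 were called at an adjusted p under 0.05, where 0 of 17496 genes (0.00%) were called in all. Their adjusted p-values ran from 0.274 for *Tnr* to 0.983 for *Spon2*. At an unadjusted p under 0.05, 3 of the 10 were higher and 1 was lower, against 5.52% and 5.45% of all genes. The count without overlap was 3 higher and 1 lower under each of 5 scalings, against 8.96% and 7.85% of all genes under TMM scaling. The 10 genes were chosen with earlier results of these data known, so these shares are description and not a test. DESeq2's Wald test called *Postn*, *Tnr* and *Spon1*, against 2.65% of 17564 genes called in all (1.12% higher and 1.53% lower). The study itself tested the same libraries with DESeq2 and named *Postn* and *Spon1*. The DESeq2 calls given here, that of *Tnr* included, are therefore not independent evidence. DESeq2 called genes in these libraries, in the study and here, where edgeR called none. The study also reported significantly increased periostin immunofluorescence in DTRScxLin tendon sections, which is evidence apart from these RNA counts.

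**Figure D1:**
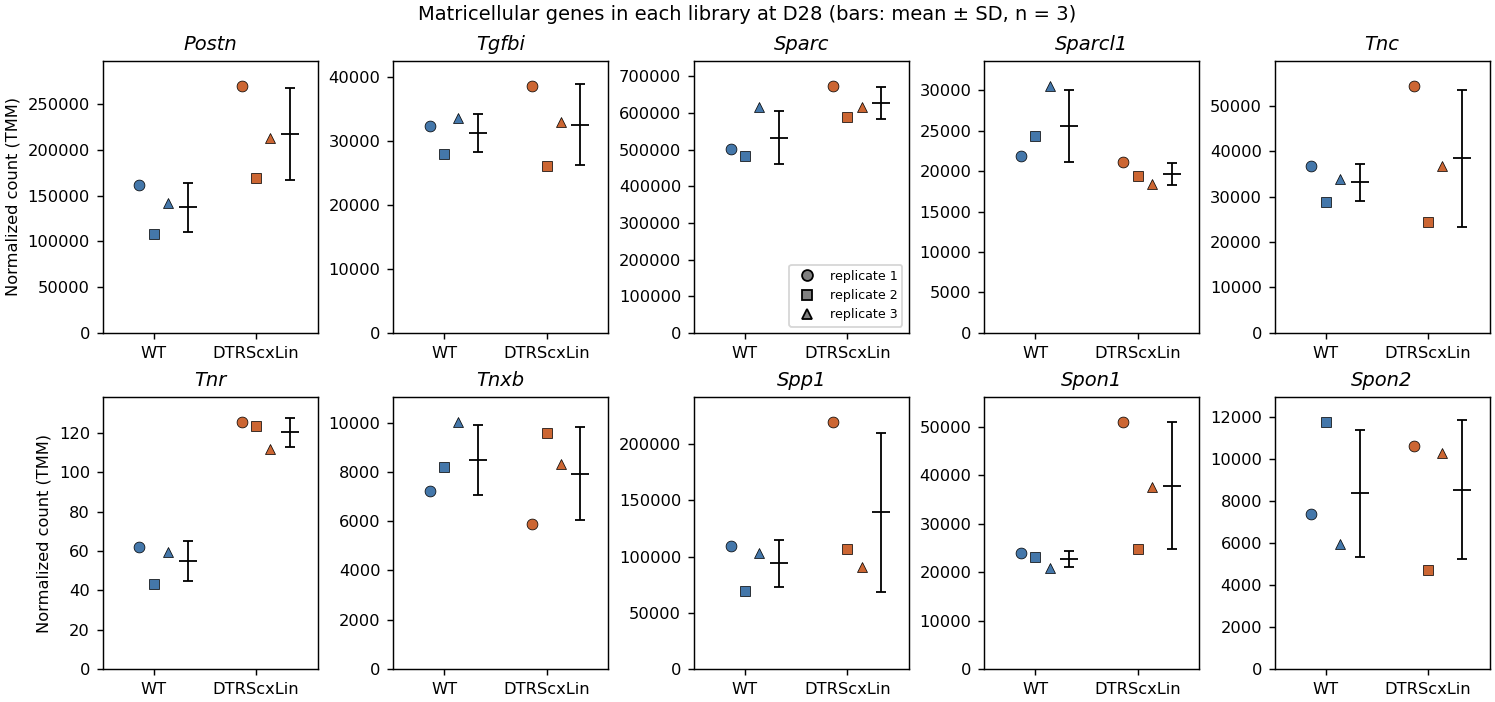
TMM-normalized read counts (vertical axes, linear and starting at 0) of the 10 matricellular genes in each library, with WT in blue, DTRScxLin in orange, the replicate as the symbol and bars for mean ± SD (n = 3). *Postn*, *Tnr* and *Spon1* lie higher in every DTRScxLin library than in any WT library, *Sparcl1* lies lower in every one, and DTRScxLin replicate 1 is the highest library in 7 of the 10 panels.

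*Postn*, the matricellular gene most used as a marker of healing and fibrotic matrix, had 161698, 108401 and 141994 normalized read counts across WT replicates 1 to 3 and 270382, 170013 and 213034 in DTRScxLin replicates 1 to 3. The lowest DTRScxLin library, replicate 2, was close above the highest WT library, replicate 1. The means were 137364 ± 26948 in WT and 217810 ± 50355 in DTRScxLin tendons (SD, n = 3 each), a fold change of 1.59 with a 95% interval of 1.098 to 2.29. On the log2 scale the difference was 0.67 with a standard error of 0.23 (edgeR's quasi-likelihood test, adjusted p = 0.398). DESeq2 gave an adjusted p of 0.0364. Leaving out DTRScxLin replicate 1 gave a log2 fold change of 0.48, and leaving out DTRScxLin replicate 2 gave 0.82. With the skeletal muscle level of each library as a covariate it was 0.32. That level was low only in DTRScxLin replicates 1 and 3, so this fit cannot separate it from genotype.

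*Tgfbi*, the other FAS1-domain gene, overlapped between the groups. It had 32375, 27871 and 33488 normalized read counts in WT and 38594, 26034 and 32977 in DTRScxLin replicates 1 to 3, so the DTRScxLin group held both the highest and the lowest library. The fold change was 1.04 with a 95% interval of 0.797 to 1.36 (edgeR adjusted p = 0.923), and the log2 fold change was negative in 3 of 18 alternative settings. The ratio of *Postn* to *Tgfbi* counts within a library needs no scaling between libraries. It was 5.00, 3.89 and 4.24 in WT and 7.01, 6.53 and 6.46 in DTRScxLin replicates 1 to 3. The mean log2 ratio was 2.12 ± 0.18 in WT and 2.74 ± 0.064 in DTRScxLin tendons (SD, n = 3 each), and the ratio did not overlap between groups (two-sided exact permutation test, p = 0.10, the smallest that 3 against 3 allows). Among 4 such ratios compared, the adjusted p was 0.133. DTRScxLin replicate 2, the lowest of all 6 libraries for *Tgfbi*, had a ratio between those of the other DTRScxLin libraries.

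SPARC and its relative SPARCL1 (hevin), a counter-adhesive protein of vessels and brain among other tissues, had fitted log2 fold changes of opposite sign, and neither was called. *Sparc* had 500826, 481963 and 615311 normalized read counts in WT and 674553, 588374 and 617397 in DTRScxLin replicates 1 to 3, with WT replicate 3 inside the DTRScxLin range. Its fold change was 1.18 with a 95% interval of 0.884 to 1.57 (edgeR adjusted p = 0.634). *Sparcl1* had 21861, 24393 and 30560 normalized read counts in WT and 21117, 19387 and 18359 in DTRScxLin replicates 1 to 3. Only a narrow gap separated WT replicate 1 from DTRScxLin replicate 1. The fold change was 0.766 with a 95% interval of 0.605 to 0.970 (edgeR adjusted p = 0.429, DESeq2 adjusted p = 0.162).

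*Sparcl1* is made by endothelial and mural cells as well as fibroblasts. A list of 12 endothelial and mural markers, all with counts in every library and 11 of them fitted lower in DTRScxLin tendons, summed to between 2230 and 2626 CPM in WT and between 1665 and 2220 CPM in DTRScxLin tendons, with *Rgs5* the most abundant. Its part in the *Sparcl1* difference was not tested. The *Sparc* to *Sparcl1* ratio was 22.9, 19.8 and 20.1 in WT and 31.9, 30.4 and 33.6 in DTRScxLin replicates 1 to 3. These are mean log2 ratios of 4.38 ± 0.12 and 5.00 ± 0.074 (SD, n = 3 each), again without overlap (two-sided exact permutation test, p = 0.10, adjusted 0.133 over 4 ratios). *Sparcl1* on its own did not overlap either, so this ratio is not separate evidence.

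**Figure D2:**
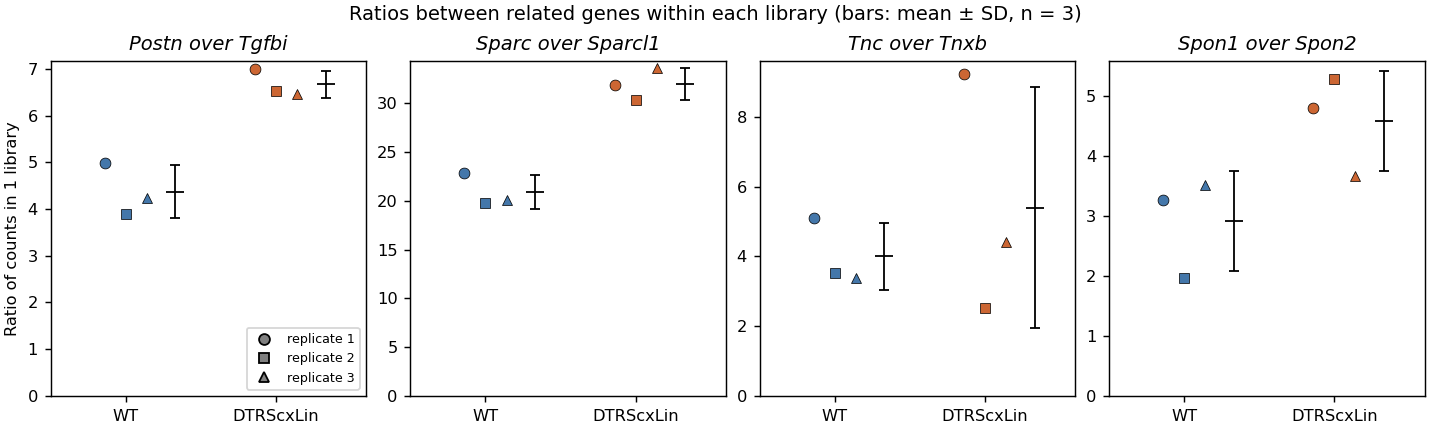
Ratio of the counts of 2 related genes within each library (vertical axes, linear and starting at 0), with WT in blue, DTRScxLin in orange, the replicate as the symbol and bars for mean ± SD (n = 3). The ratios of *Postn* to *Tgfbi*, *Sparc* to *Sparcl1* and *Spon1* to *Spon2* are higher in every DTRScxLin library than in any WT library, and that of *Tnc* to *Tnxb* spreads from 2.53 to 9.23 in the DTRScxLin libraries. *Postn*, *Sparcl1* and *Spon1* on their own did not overlap between the groups either.

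Of the tenascins, *Tnr* had the largest fold change of the 10 genes at the lowest level. Its raw counts were 61, 46 and 57 in WT and 122, 129 and 109 in DTRScxLin replicates 1 to 3. The exact Poisson 95% intervals reached at most 78.4 in WT and went down to 89.5 in DTRScxLin libraries, which covers counting error only. Normalized counts were 54.8 ± 10.1 in WT and 120.4 ± 7.34 in DTRScxLin tendons (SD, n = 3 each), a fold change of 2.194 with a 95% interval of 1.48 to 3.26 (edgeR adjusted p = 0.274, DESeq2 adjusted p = 0.0091). With each library left out in turn the log2 fold change stayed between 0.99 and 1.23, and among the other alternatives between 1.06 and 1.15, the fit with the muscle covariate included.

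*Tnr* is known from glia, so 12 Schwann and glial markers, all with counts in every library, were set beside it. They summed to between 348.2 and 682.8 CPM in WT and between 244.7 and 444.2 CPM in DTRScxLin tendons, with *Gfap* at 1 count or less in some library. The groups overlapped in this sum, with DTRScxLin replicate 3 above WT replicate 1, and its part in the *Tnr* difference was not tested. In GENCODE vM21 an antisense transcript overlaps 3.44% of the exonic bases of *Tnr*, and the strand setting of the counting is not given in the sources used here.

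*Tnc*, the tenascin of injury and loading, had a wider spread among the DTRScxLin tendons than among the WT tendons, a contrast that was not tested. It had 36790, 28815 and 33855 normalized read counts in WT and 54422, 24323 and 36656 in DTRScxLin replicates 1 to 3, which holds both the highest and the lowest library. The coefficient of variation was 12.2% in WT and 39.3% in DTRScxLin tendons. The fold change was 1.16 with a 95% interval of 0.730 to 1.84 (edgeR adjusted p = 0.805). Without DTRScxLin replicate 1 the log2 fold change was -0.12 and without DTRScxLin replicate 2 it was 0.46.

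*Tnxb*, which encodes the tenascin of mature collagen, had 7220, 8183 and 10036 normalized read counts in WT and 5895, 9599 and 8306 in DTRScxLin replicates 1 to 3. DTRScxLin replicate 1, the highest library for *Tnc*, was the lowest for *Tnxb*. The fold change was 0.936 with a 95% interval of 0.675 to 1.30 (edgeR adjusted p = 0.887). The ratio of *Tnc* to *Tnxb* was 5.10, 3.52 and 3.37 in WT and 9.23, 2.53 and 4.41 in DTRScxLin replicates 1 to 3, and the groups overlapped (difference of mean log2 ratios 0.26, two-sided exact permutation test, p = 0.80). A difference in this ratio was not detectable with 3 tendons per group.

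*Spp1*, which encodes osteopontin, an integrin and CD44 ligand of macrophages and bone cells, was high in 1 DTRScxLin library. It had 108964, 69652 and 103171 normalized read counts in WT and 219804, 107148 and 90631 in DTRScxLin replicates 1 to 3, where replicates 2 and 3 lay within the WT range. The fold change of 1.48 had a 95% interval of 0.810 to 2.71 (edgeR adjusted p = 0.583), and without DTRScxLin replicate 1 the log2 fold change went from 0.57 to 0.071. A list of 13 macrophage markers, all with counts in every library, summed to 3804 to 4767 CPM in WT and to 4700, 4781 and 4057 CPM in DTRScxLin replicates 1 to 3. A list of 13 bone and cartilage markers, led by *Ctsk* and with *Sost* at 1 count or less in some library, summed to 1257 to 1595 CPM in WT and to 1896, 1495 and 1455 CPM in DTRScxLin replicates 1 to 3. The library with the most *Spp1* thus had the highest sum of bone and cartilage markers but not of macrophage markers, and their part in the *Spp1* level was not tested. In GENCODE vM21 a transcript of unclear status on the same strand covers 18.8% of the exonic bases of *Spp1*, and how reads shared by both were assigned is not given in the sources used here.

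The spondins, secreted proteins with thrombospondin type 1 repeats, also differed from each other in their fold changes. *Spon1* (F-spondin, first known from axon guidance) had 23996, 23150 and 20905 normalized read counts in WT and 51070, 24886 and 37666 in DTRScxLin replicates 1 to 3. DTRScxLin replicate 2 was only just above the highest WT library. The means were 22684 ± 1597 and 37874 ± 13093 (SD, n = 3 each), a fold change of 1.67 with a 95% interval of 1.12 to 2.49 (edgeR adjusted p = 0.393, DESeq2 adjusted p = 0.0374). Without DTRScxLin replicate 2 the log2 fold change was 0.97 and edgeR called the gene (adjusted p = 0.0279). Without DTRScxLin replicate 1 it was 0.46, and with the muscle covariate 0.17.

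*Spon2* (mindin, also studied in innate immunity) had 7365, 11774 and 5958 normalized read counts in WT and 10647, 4722 and 10281 in DTRScxLin replicates 1 to 3. Both groups spread widely, with coefficients of variation of 36.3% and 38.8%, and the 95% interval of the fold change ran from 0.498 to 2.10 (edgeR adjusted p = 0.983). The ratio of *Spon1* to *Spon2* was 3.26, 1.97 and 3.51 in WT and 4.797, 5.27 and 3.66 in DTRScxLin replicates 1 to 3. The groups did not overlap, by a narrow margin (difference of mean log2 ratios 0.68, two-sided exact permutation test, p = 0.10, adjusted 0.133 over 4 ratios). *Spon1* on its own did not overlap either, so this ratio is not separate evidence.

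**Figure D3:**
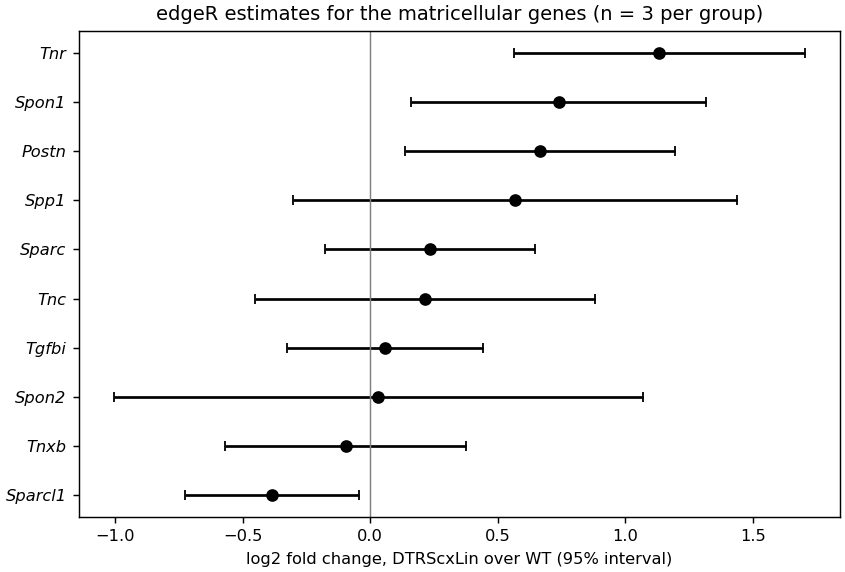
edgeR log2 fold change of DTRScxLin over WT (horizontal axis) for each matricellular gene, with points for the estimate and bars for its 95% interval before adjustment over genes. The intervals of *Tnr*, *Spon1* and *Postn* lie above 0 and that of *Sparcl1* lies below 0, while the other 6 include 0.

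DTRScxLin replicate 1 was the highest library for 7 of the 10 genes and the lowest for *Tnxb*, and it also held the fewest skeletal muscle transcripts (3221 CPM). DTRScxLin replicate 2 was the lowest of all 6 libraries for *Tgfbi*, *Tnc* and *Spon2*, and its muscle sum (22526 CPM) was within the WT range. The muscle level used as a covariate, the mean log2 CPM of the list, was 9.09 to 9.54 in WT and 9.45 in DTRScxLin replicate 2. It was 6.74 and 7.33 in DTRScxLin replicates 1 and 3. It thus largely went with genotype, and the 2 cannot be told apart in this fit. With the muscle level as a covariate, 6 of the 10 genes had a positive log2 fold change in place of 8, and the median over the 10 was 0.11 in place of 0.23. Over all genes tested, the median log2 fold change without the covariate was 0.0082. The covariate shifted the log2 fold changes of all genes by a median of -0.00955. Under that covariate *Tnr* and *Sparcl1* were at 1.14 and -0.46, *Tgfbi*, *Tnc* and *Spon2* turned negative (-0.26, -0.43 and -0.71), and *Tnxb* turned positive (0.15). Over the 18 alternative settings *Postn*, *Sparc*, *Tnr*, *Spp1* and *Spon1* were positive in each and *Sparcl1* was negative in each.

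**Figure D4:**
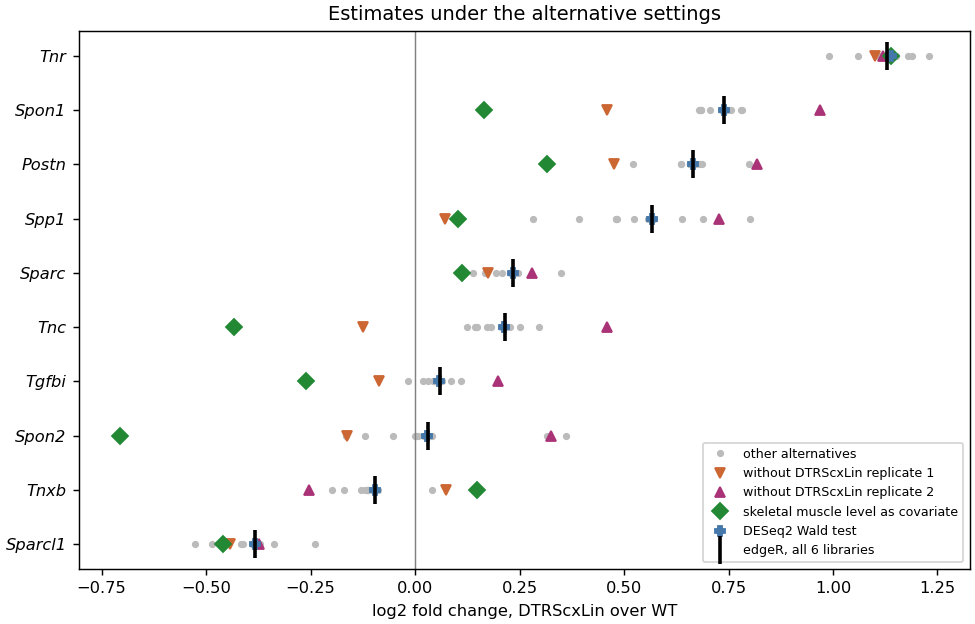
log2 fold change of DTRScxLin over WT (horizontal axis) of each matricellular gene with all 6 libraries in edgeR (black bars) and under 18 alternative settings (symbols). *Tnr* stays between 0.99 and 1.23, while *Spon1* runs from 0.17 with the muscle covariate to 0.97 without DTRScxLin replicate 2.

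The genes most like each member in their course over the 6 libraries were found among all tested genes with at least 50 normalized read counts on average, by the root mean square difference of log2 CPM after each gene's mean was subtracted. *Slfn9* (0.057), *Timp1* (0.092), an inhibitor of matrix metalloproteinases, and *Lrrc17* (0.098) were nearest to *Postn*, whose own root mean square deviation was 0.42. *Psrc1* (0.086) and *Cks2* (0.10), which act in mitosis, and the transporter gene *Slc16a4* (0.10) were nearest to *Spon1*. *Smarca1* (0.13), *Bhlhe22* (0.19) and *Insig1* (0.20) were nearest to *Tnr*, and *Thsd4* (0.073), *Amigo2* (0.085) and *Proser3* (0.10) to *Sparcl1*. For the genes whose groups overlapped, the nearest were *Copg1* (0.019) for *Sparc*, *Gpc1* (0.027) for *Tgfbi*, *Adamts12* (0.079) for *Tnc*, *1810034E14Rik* (0.048) for *Tnxb*, *Srgn* (0.13) for *Spp1* and *Ctxn1* (0.17) for *Spon2*. These distances cover 6 libraries and describe the course of the transcripts only.

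Genes of the same protein families were described from a list of 13, of which 10 were tested and *Spock1*, *Dspp* and *Mepe* had at most 15 counts in any library. Of the 10, 7 had a positive log2 fold change, against 51.5% of all genes tested, with a median of 0.10. edgeR called none (0 at an adjusted p under 0.05). At an unadjusted p under 0.05, 2 were higher and 1 was lower, against 5.52% and 5.45% of all genes. Such shares beside a list are description and not a test. *Tnn* (tenascin-W), a tenascin known from developing bone, had 1291, 1922 and 2141 normalized read counts in WT and 6670, 2474 and 3793 in DTRScxLin replicates 1 to 3. This is a fold change of 2.42 with a wide 95% interval of 1.14 to 5.12 (edgeR adjusted p = 0.427). *Fstl1*, a secreted member of the SPARC family, had 101758, 101436 and 113107 in WT and 152787, 149424 and 153540 in DTRScxLin replicates 1 to 3. Its 3 DTRScxLin libraries had a coefficient of variation of 1.44% (fold change 1.44, 95% interval 1.17 to 1.78, edgeR adjusted p = 0.307).

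*Spock2* (testican-2), another SPARC relative, was lower, with 644.5, 730.7 and 705.8 normalized read counts in WT and 407.1, 441.0 and 403.8 in DTRScxLin replicates 1 to 3 (fold change 0.602, 95% interval 0.501 to 0.722). Its edgeR adjusted p of 0.199 was the smallest value reached, and under Benjamini-Hochberg adjustment it is shared with other genes. DESeq2 called *Fstl1* and *Spock2* in this list, against 2.65% of all genes. *Smoc1*, the second lowest of the list by fold change among genes averaging 50 normalized read counts or more, had a fold change of 0.990 (edgeR adjusted p = 0.988).

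Receptors and binding partners of these proteins were described from a list of 24 genes, all tested. Of these, 14 were fitted higher and 10 lower, where 51.5% of all genes tested were higher, with a median log2 fold change of 0.15. edgeR called none. In this list 4 were higher and 2 lower at an unadjusted p under 0.05, against 5.52% and 5.45% of all genes. *Cntn2*, a neural adhesion gene of the contactin family whose member contactin-1 is a receptor for tenascin-R, had a fold change of 2.68 (95% interval 1.34 to 5.36, edgeR adjusted p = 0.354), with DTRScxLin replicate 2 inside the WT range. *Cntn1* itself had only 7.11 to 23.0 normalized read counts in any library. *Egfr*, bound by the EGF-like repeats of tenascin-C, had 9767 ± 511 in WT and 13151 ± 1429 normalized read counts in DTRScxLin tendons (SD, n = 3 each), without overlap (edgeR adjusted p = 0.314).

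At the other end, *Vldlr*, a lipoprotein receptor that binds F-spondin and is abundant in muscle, had 7586, 6515 and 4016 normalized read counts in WT and 1205, 3651 and 1038 in DTRScxLin replicates 1 to 3 (fold change 0.325, 95% interval 0.107 to 0.993, edgeR adjusted p = 0.454). *Itgb6*, an epithelial integrin subunit whose receptor binds latent TGF-beta, had 512.6, 476.5 and 383.5 in WT and 86.6, 403.7 and 133.6 in DTRScxLin replicates 1 to 3. Both were lowest in DTRScxLin replicates 1 and 3, the libraries with the fewest muscle transcripts, and the part of muscle in them was not tested. Chosen after its values were seen, *Itgav*, the integrin subunit shared by receptors of periostin, osteopontin and tenascin-C, had 4277 to 4493 normalized read counts in WT and 6095, 5147 and 5197 in DTRScxLin replicates 1 to 3 (edgeR adjusted p = 0.347). DESeq2 called *Cntn2*, *Egfr* and, lower, *Itga7* in this list, against 2.65% of all genes.

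All 22 matrix partners, the proteins the matricellular genes bind and the enzymes that act on them, had a positive log2 fold change under TMM scaling (21 with RLE factors and 20 with library size alone), with a median of 0.34 against 0.0082 over all genes tested. None was called by edgeR, and 5 were higher and 0 lower at an unadjusted p under 0.05, against 5.52% and 5.45% of all genes. In 7 of the 22 every DTRScxLin library was above every WT library, against 8.96% of all genes. Without DTRScxLin replicate 1, 17 of 22 were positive with a median of 0.098, and with the muscle covariate 9 of 22 with a median of -0.051. *Col5a1*, a collagen that sets fibril diameter, had a fold change of 1.58 (95% interval 1.11 to 2.26, edgeR adjusted p = 0.389). *Mmp9*, a gelatinase, had 4520 normalized read counts in DTRScxLin replicate 1 and 286.9 to 1640 in the other 5 libraries. *Tgm2* and *Mmp3* had fold changes of 1.01 and 1.00. Chosen after its values were seen, *Lox*, whose enzyme crosslinks collagen and is activated by BMP1 on a periostin scaffold, had 58159 to 60622 normalized read counts in WT and 104665, 86122 and 91949 in DTRScxLin replicates 1 to 3 (fold change 1.58, edgeR adjusted p = 0.274), while *Bmp1* had a fold change of 1.14. DESeq2 called *Col5a1* and *Lox*, against 2.65% of all genes, and the study had also listed both from these libraries. This list was chosen with earlier results of these data known, so its counts beside those of all genes are description and not a test.

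TGF-beta signalling genes, which include the inducers of *Postn* and *Tgfbi*, were described from a list of 19. Of these, all tested, 13 were fitted higher, against 51.5% of all genes tested, with a median log2 fold change of 0.10. edgeR called none, and 2 were higher and 0 lower at an unadjusted p under 0.05, against 5.52% and 5.45% of all genes. The ligand genes *Tgfb1*, *Tgfb2* and *Tgfb3*, chosen after their values were seen, had fold changes of 0.998, 1.01 and 1.14. *Ccn2*, a common target gene, had a fold change of 1.43 (95% interval 0.790 to 2.60), *Ltbp4* one of 0.886 and *Il11* one of 0.791, each with overlap between the groups. Other genes of the list did differ without overlap. In 3 of the 19 every DTRScxLin library was above every WT library, against 8.96% of all genes. DESeq2 called 1 of the 19, higher and not among those named in this paragraph, against 2.65% of all genes.

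**Figure D5:**
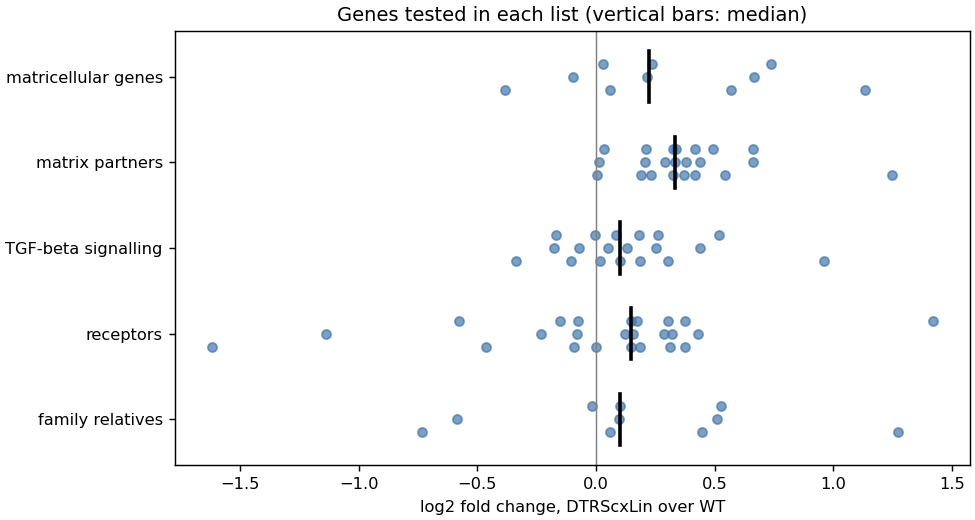
log2 fold change of DTRScxLin over WT (horizontal axis) of each tested gene in the 10 matricellular genes and the 4 lists around them, 1 point per gene, with vertical bars at the median of each list. All 22 matrix partners lie above 0 under this TMM scaling (20 with library size alone, 17 without DTRScxLin replicate 1), with a median of 0.34, while receptors run from -1.62 to 1.42.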

How the data were processed

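Single-end mRNA libraries were made from FDL tendon RNA (200 ng per library). Per the labels and the study's methods, the authors trimmed reads with FastP, assigned them to genes with featureCounts, and deposited the whole-number counts without normalization. The aligner, genome build and strand setting are not given in the sources used here. The labels name 2 library kits, TruSeq Stranded mRNA and SMARTER mRNA-Seq. A second deposited table of signal values held the same counts divided by 1 DESeq2 (1.22.1) size factor per library, from 0.973 to 1.065.

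Counts were analysed with edgeR 4.0.16 in R 4.3.3 (filterByExpr by genotype, TMM factors, robust quasi-likelihood fit with genotype as the single term, Benjamini-Hochberg adjustment over 17496 genes, threshold 0.05). Normalized counts are TMM-scaled to the mean library size. Standard errors are the absolute log2 fold change over the square root of F, and 95% intervals use the moderated degrees of freedom. Each within-library ratio was compared by a two-sided exact permutation test. The scripts were tested on simulated data. Gene lengths came from GENCODE vM21, matched by symbol.

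The alternatives were DESeq2 1.42.0, limma-voom (limma 3.58.1), other scalings and filters, a replicate block, omission of single libraries, the deposited normalized counts as log2(value + 1), and removal of, or covariates for, muscle and keratinocyte transcripts. The genes named were the 10 members, *Scx* and *Tnmd*, the 2 highest and 2 lowest genes by log2 fold change in each list among those averaging 50 or more normalized counts, the 3 genes most like a member, and marker genes. Some genes that this rule names are not reported here. The members and lists were chosen with earlier results of these data known. Each library is 1 tendon of 1 genotype, and replicate libraries differed by 36.6 to 190 chi-square units per degree of freedom, so none was a duplicate.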

Additional observations from a re-analysis of the deposited data

How the results depend on the processing

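edgeR called 0 genes with all 6 libraries, and no member or list gene. DESeq2's Wald test called 466 of 17564 genes (2.65%), of which 3 were matricellular genes, 2 family relatives, 3 receptors, 2 matrix partners and 1 a TGF-beta signalling gene. Without a filter on low counts edgeR called 83 of 30758 genes, with 1 family relative and 1 receptor. With 1 library left out in turn it called 0 to 544 genes, 0 to 1 matricellular genes (*Spon1*), 0 to 1 family relatives, 0 to 4 receptors and 0 to 2 matrix partners. Every call came without DTRScxLin replicate 2, where 17998 genes were tested. With the replicate block edgeR called 1 gene, not among the lists. Same-numbered WT and DTRScxLin libraries did not deviate together (correlations of -0.188, -0.149 and -0.684 across genes), so the numbers were not taken as pairs.

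Of the estimates for the 10 genes under the 18 alternatives, 162 kept their direction and side of the threshold, 4 became called and 14 reversed. With single libraries left out, log2 fold changes ran from -0.165 to 0.361 for *Spon2*, from -0.0863 to 0.198 for *Tgfbi*, from -0.124 to 0.46 for *Tnc* and from -0.254 to 0.0742 for *Tnxb*. *Spon2* reversed without WT replicates 1 and 3 and DTRScxLin replicates 1 and 3 (from -0.165 to -0.0517), in the deposited normalized counts (-0.000776) and with the muscle covariate (-0.707). *Tgfbi* reversed without WT replicate 2 (-0.0169), without DTRScxLin replicate 1 (-0.0863) and with the muscle covariate (-0.26). *Tnc* reversed without DTRScxLin replicate 1 (-0.124) and with the muscle covariate (-0.434). *Tnxb* reversed without WT replicate 3 (0.0407), without DTRScxLin replicate 1 (0.0742) and with the muscle covariate (0.149). The cause was not tested. *Tnr* had the lowest counts of the members, 46 to 129 per library.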
